A study of Rattus norvegicus with 12 samples.

Results

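The genes described here are 43 genes of the synaptic vesicle cycle, chosen by name from the probe annotation of the arrays, out of 18700 genes tested. They were represented by 54 probes in 81 spots, and all 43 had a probe that passed the filter on dim signals. RNA levels were read on 6 Agilent 2-colour arrays in prefrontal cortex taken from Sprague-Dawley rats, all female. In the betamethasone with ketamine group, dams were injected 2 times on gestational day 15 with betamethasone, at 0.4 mg/kg per injection, and the offspring received ketamine at 35 mg/kg on postnatal day 14. In the betamethasone group, the dams received the same injections and the offspring received saline. In the control group, dams and offspring both received saline. Tissue was taken on postnatal day 15 according to the sample descriptions, although another label field reads P145. Each group held 4 samples, described as biological replicates, and the labels name no litter, so p-values measure the spread between these samples. The treatment description applies the postnatal injection to rats that showed infantile spasms, and does not say whether the controls had any. Betamethasone is a synthetic glucocorticoid that crosses the placenta, and ketamine blocks NMDA-type glutamate receptors.

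At a synapse, vesicles filled with transmitter dock at the active zone, are primed by Munc13 and RIM proteins, and fuse when calcium binds synaptotagmins. Fusion is driven by the SNARE proteins synaptobrevin on the vesicle and syntaxin and SNAP-25 on the plasma membrane, which NSF and its SNAP adaptors afterwards take apart. The membrane is then retrieved by clathrin, amphiphysin, endophilin, dynamin and synaptojanin, and the whole set builds up in cortical neurons as synapses form.

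The 2 dyes of an array held 2 animals of a single group: replicates 1 and 2 shared one array and replicates 3 and 4 the other, with replicates 1 and 3 in Cy3. Both control arrays lay on 1 slide and the other 4 arrays on another slide, and group and slide cannot be told apart in the comparisons with control. The slope of measured on given log ratios of the spiked-in RNAs was 0.492 and 0.542 on the control arrays and 0.873 to 0.881 on the others. In each sample, 71.4% to 81.5% of the 42877 non-control spots were well above background and none was saturated. On the array of betamethasone with ketamine replicates 1 and 2, 4.10% of spots lay in damaged areas, where the signal departed from the other arrays by a median of -0.66 on the log2 scale. The cortical markers Slc17a7, Camk2a, Neurod6, Tbr1, Gad1 and Gad2 were well above background in all 12 samples. As this is bulk tissue, fewer cells of a type and less RNA per cell cannot be told apart.

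The following probe sequences are shown because the values that stand out among the 43 genes rest on them. Each is given 5′ to 3′ as in the deposited files. Those judged to lie in coding sequence are given in full and the others by their first 30 of 60 bases, with no letters capitalised because no motif is singled out.
Napb (rn4 chr3:137447124-137448477, minus strand, across a splice junction): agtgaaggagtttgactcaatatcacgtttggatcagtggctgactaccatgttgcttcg
Rab3c (rn4 chr2:41457253-41457312, minus strand): tgtggcgaatttgctcttatatttgtaagg
Rims2, probe nearer the 5′ end (rn4 chr7:74922085-74922144, plus strand): acaacaagaaatcctcactaagtcgggcgc
Rims2, probe nearer the 3′ end (rn4 chr7:75271625-75271684, plus strand): ggtgatacaaagacacaccaagtttattct
Sv2c (rn4 chr2:26326920-26326979, minus strand): tcaaacttttgctgtgacgtaaatgtagct
Syp (rn4 chrX:26890644-26890703, minus strand): aatgtggggaaagccaagtattgtggtttg
Syt2 (rn4 chr13:47697767-47697826, plus strand): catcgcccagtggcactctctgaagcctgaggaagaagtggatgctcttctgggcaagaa
Syt4, coding probe (rn4 chr18:23810667-23810726, minus strand): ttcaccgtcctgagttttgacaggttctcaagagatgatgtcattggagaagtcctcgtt
Syt4, probe nearer the 3′ end (rn4 chr18:23805448-23805507, minus strand): ggtgtaagtcgattgaaactatttatggct

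The first question was whether prenatal betamethasone changed these genes in the offspring. Napb, which encodes the SNAP adaptor of brain, was lower by 0.59 on the log2 scale in betamethasone than in control (log2 change -0.59, SE 0.16), and Sv2c, a vesicle glycoprotein, was higher by 0.78 (SE 0.32), or by 0.081 without the array of betamethasone replicates 3 and 4. None of the 43 passed an adjusted p of 0.05 in betamethasone against control (limma, Benjamini-Hochberg over all genes tested), where 0.246% of the 18700 genes did. Their median log2 change was -0.06, against 0.03 over all genes tested, and 17 were higher (56% of all genes) and 26 lower (44% of all genes). At an unadjusted p under 0.05 there were 3 of the 43, against 11.7% of all genes. The second question was what ketamine added. Pclo, an active zone scaffold, was higher by 0.39 (SE 0.17) in betamethasone with ketamine than in betamethasone. In that comparison 0 of the 43 and 0% of all genes passed. The median was 0.06, against 0.05 over all genes, with 28 higher (62.9% of all genes) and 15 lower (37.1%), and 2 of the 43 had an unadjusted p under 0.05, against 3.24% of all genes. In betamethasone with ketamine against control, 0 of the 43 and 0.0909% of all genes passed. The median was 0.02, against 0.07 over all genes, with 22 higher (63.8% of all genes) and 21 lower (36.2%), and 7 of the 43 had an unadjusted p under 0.05, against 14.1% of all genes. The ketamine counts at that unadjusted threshold include Syp against betamethasone, and Rab3c, Syt2 and Syt4 against control. The tested spots of these genes lay in a damaged area, described below, and were kept in these counts. The comparisons share samples, so their values are set side by side and not counted as separate evidence.

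The balance of higher and lower members depended on how the arrays were scaled. In betamethasone against control, 31 of the 43 were higher with array medians in place of Aquantile, 20 with 75th percentile scaling, 19 with the scanner-processed signals and 2 of 37 with the deposited value table. Counted against the median of all genes in the same setting, 28, 28, 14 and 21 were higher, next to 17 as first given. In betamethasone with ketamine against betamethasone, 9, 27, 29 and 25 were higher in these 4 settings, and 16, 16, 26 and 18 relative to all genes, next to 24. In betamethasone with ketamine against control, 18, 27, 25 and 3 were higher, and 18, 18, 17 and 19 relative to all genes, next to 18. No direction of the set as a whole is therefore given, and the counts by class were not recomputed under other scalings.

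The precision of these comparisons differed by gene. The median 95% half-width of a member's log2 change was 0.41, against 0.32 over all genes. The whole interval lay within a 1.5-fold change in either direction for 19 of the 43 genes in betamethasone against control, 21 in betamethasone with ketamine against betamethasone and 20 in betamethasone with ketamine against control. The corresponding shares of all genes were 65.3%, 70.1% and 63.7%. For the remaining members the interval still held a change of 1.5-fold in at least one direction.

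**Figure D1:**
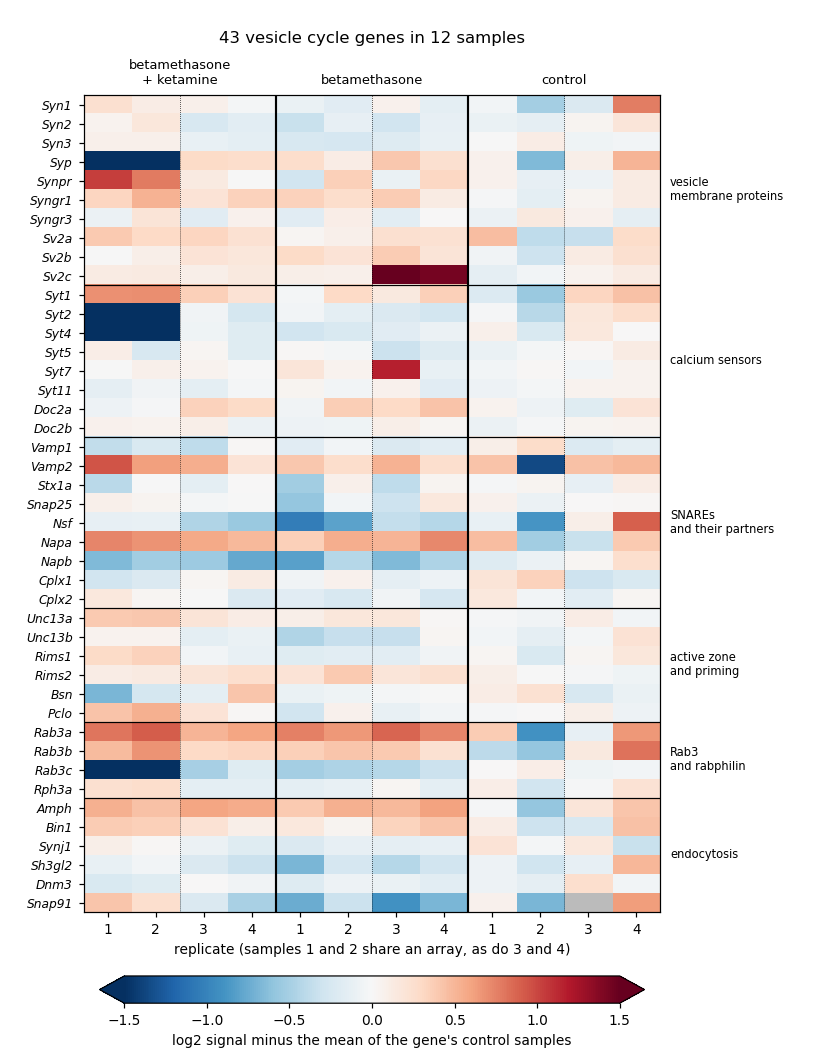
Log2 signal of each of the 43 genes in each of the 12 samples, as the difference from the mean of that gene's control samples; colours end at 1.5 in either direction, dotted lines part the 2 arrays of a group, and grey marks the missing Snap91 value of control replicate 3. Syp, Syt2, Syt4 and Rab3c are dark blue only in betamethasone with ketamine replicates 1 and 2, and Sv2c is dark red only in betamethasone replicates 3 and 4.

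Among the vesicle membrane proteins, 6 of 10 were higher and 4 lower in betamethasone than in control, with a median of 0.11, and none passed. Sv2c, one of the SV2 glycoproteins of vesicles, had log2 signals of 8.12, 8.14, 8.08 and 8.14 in betamethasone with ketamine, 8.09, 8.07, 9.53 and 9.44 in betamethasone, and 7.86, 7.96, 8.05 and 8.12 in control. Only the samples of the array of betamethasone replicates 3 and 4 were high, and the other pair overlapped with control. The fitted change was 0.78 (SE 0.32, limma adjusted p = 0.376) in betamethasone against control, and 0.081 without the array of betamethasone replicates 3 and 4.

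Syn3, a synapsin, which tethers vesicles in the reserve pool, had log2 signals of 7.71, 7.71, 7.52 and 7.49 in betamethasone with ketamine, 7.40, 7.39, 7.44 and 7.53 in betamethasone, and 7.62, 7.75, 7.58 and 7.59 in control. All 4 betamethasone samples lay below all 4 control samples, by 0.20 on average (log2 change -0.20, SE 0.10, limma adjusted p = 0.46). The signal was dim, close to the 7.43 and 7.40 of Syt2 in a damaged area, described below. Relative to the median of all genes, the size of the Syn3 change depended on the scaling, from -1.16 to -0.22 over 4 settings. The related Syn1 and Syn2 had log2 changes of -0.09 (SE 0.35) and -0.22 (SE 0.12), and neither passed.

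Syngr1, a synaptogyrin of the vesicle membrane, had log2 signals of 9.19, 9.39, 9.07 and 9.22 in betamethasone with ketamine, 9.21, 9.13, 9.25 and 8.99 in betamethasone, and 8.85, 8.72, 8.91 and 8.99 in control. The betamethasone with ketamine samples all lay above the controls, while the betamethasone samples met them at 8.99. The change was 0.35 (SE 0.14, limma adjusted p = 0.324) in betamethasone with ketamine and 0.28 (SE 0.14, limma adjusted p = 0.476) in betamethasone, each against control. With the deposited value table these changes were -0.15 and -0.24, or 0.34 and 0.34 above the median of all genes in that setting.

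Syngr3, Sv2a, Sv2b and Synpr (synaptoporin, a relative of synaptophysin) had changes of -0.06 to 0.27 in betamethasone against control and of -0.00 to 0.49 in betamethasone with ketamine against control, and none passed. Synpr was high in betamethasone with ketamine replicates 1 and 2 (11.57 and 11.30), next to 10.65 and 10.52 in replicates 3 and 4. These are values of the tested probe. At its second probe, Synpr had a change of -0.46 (SE 0.28) in betamethasone against control. That probe had 0.72 (SE 0.28, limma adjusted p = 0.909) in betamethasone with ketamine against betamethasone, where the tested probe had 0.41 (SE 0.31).

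Syp, synaptophysin, an abundant membrane protein of small vesicles, showed the widest spread of the 43 genes. Its log2 signals were 9.96, 9.99, 15.59 and 15.55 in betamethasone with ketamine, 15.56, 15.41, 15.70 and 15.53 in betamethasone, and 15.36, 14.63, 15.38 and 15.81 in control. Both animals on the array of replicates 1 and 2 read low, and the other 10 samples lay between 14.63 and 15.81. The fitted change of -2.78 against betamethasone (SE 1.24, limma adjusted p = 0.906) rested on that array.

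Syt4 and Syt2 were low in the same pair of samples, as was Rab3c, described below with its family. Syt4, an atypical synaptotagmin found on dense-core vesicles, had log2 signals of 11.00, 11.02, 13.90 and 13.78 in betamethasone with ketamine, 13.69, 13.74, 13.80 and 13.88 in betamethasone, and 14.04, 13.74, 14.13 and 13.97 in control. Syt2, a fast calcium sensor, read 7.43, 7.40, 9.02 and 8.81 in betamethasone with ketamine, 9.04, 8.94, 8.86 and 8.80 in betamethasone, and 9.06, 8.67, 9.25 and 9.34 in control. Again only replicates 1 and 2 of betamethasone with ketamine were low.

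The tested spots of these 4 genes lay close together on that array, in rows 251 to 279 and columns 37 to 50, inside its dark area. The raw mean intensity at the Syp spot was 560 and 849 scanner units for betamethasone with ketamine replicates 1 and 2, and 36631 and 60511 for replicates 3 and 4. The coding Syt4 probe, spotted elsewhere, read 9.59, 9.56, 9.69 and 9.42 in betamethasone with ketamine, 9.28, 9.57, 9.35 and 9.54 in betamethasone, and 9.75, 9.54, 9.72 and 9.99 in control. At that probe, replicates 1 and 2 lay within the range of the other pair.

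With the damaged areas masked, which leaves the 2 samples of the other ketamine array for these spots, the changes of betamethasone with ketamine against betamethasone were near 0. They were 0.02 for Syp (SE 0.36), 0.06 for Syt4 (SE 0.16), 0.01 for Syt2 (SE 0.21) and 0.10 for Rab3c (SE 0.13), against -2.78, -1.35, -0.74 and -0.62 with the spots kept. Each masked value had a limma adjusted p of 0.953 to 0.998. The same area also held 1 of the 10 spots of Syt11 and 1 of the 10 of Vamp1. Feature Extraction had marked both as outliers in both channels, so they entered no value, while the spots of Syp, Syt4, Syt2 and Rab3c carried no such mark.

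**Figure D2:**
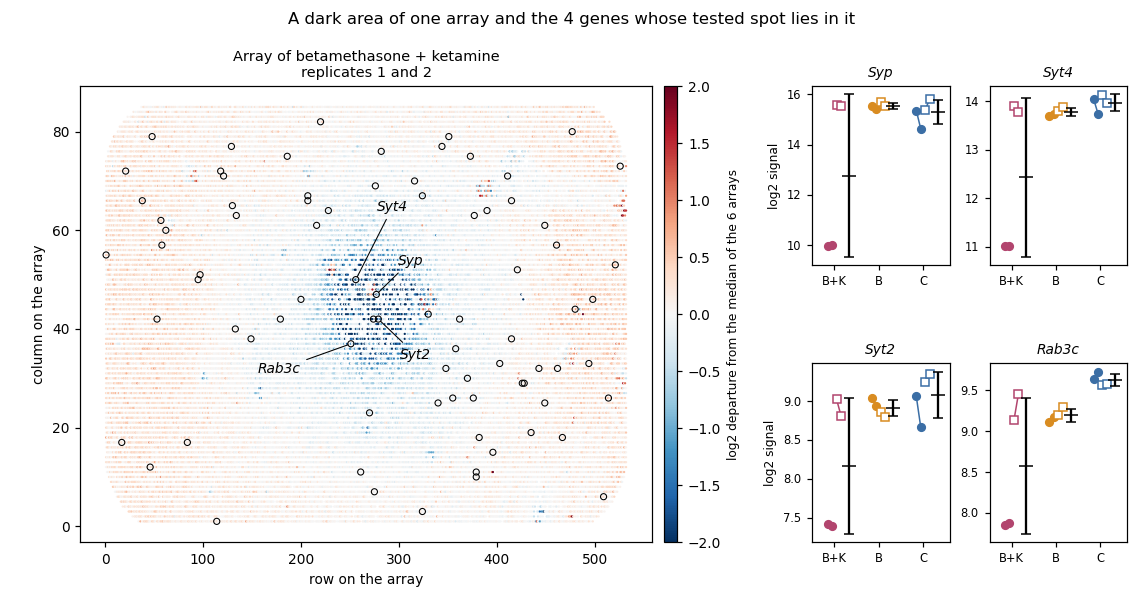
Left, every non-control spot of the array of betamethasone with ketamine replicates 1 and 2 at its row and column, coloured by the log2 departure of its mean signal from the median of the 6 arrays (colours end at 2 in either direction), with the spots of the 43 genes circled. Right, log2 signal by sample in betamethasone with ketamine (B+K), betamethasone (B) and control (C), with circles for replicates 1 and 2, squares for 3 and 4, and the mean with SD (n = 4) in black; the 4 genes named sit in the blue area and are lowest in the 2 samples read there.

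Among the other calcium sensors, Syt1, the main fast sensor of forebrain synapses, was higher by 0.49 in betamethasone with ketamine than in control (SE 0.26, limma adjusted p = 0.41), and its groups overlapped. Syt7, the sensor of slow, asynchronous release, read 9.01 in betamethasone replicate 3 and between 7.74 and 8.02 in the other 11 samples. Syt5, Syt11, Doc2a and Doc2b, of which the Doc2 proteins act in spontaneous release, had log2 changes of -0.13 to 0.26 in the 3 comparisons. Over the 8 sensors, 3 were higher and 5 lower in betamethasone than in control.

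Napb, which encodes beta-SNAP, the brain form of the adaptor that brings NSF to spent SNARE complexes, had the smallest p-value of the 43 genes in both comparisons with control. Its log2 signals were 8.78, 8.92, 8.90 and 8.68 in betamethasone with ketamine, 8.63, 9.02, 8.79 and 8.98 in betamethasone, and 9.25, 9.36, 9.48 and 9.69 in control. All 8 exposed samples lay below all 4 controls, on both arrays of each group. The log2 change was -0.63 (SE 0.16, 0.648-fold, limma adjusted p = 0.181) in betamethasone with ketamine and -0.59 (SE 0.16, 0.664-fold, limma adjusted p = 0.189) in betamethasone, each against control. Between betamethasone with ketamine and betamethasone it was -0.03 (SE 0.16, limma adjusted p = 0.984).

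Napb lay below the median of all genes under each of 5 scalings, by 0.60 to 1.05 in betamethasone with ketamine and by 0.62 to 0.93 in betamethasone, on the log2 scale. In betamethasone against control it passed in 4 of 29 alternative settings, with limma adjusted p-values from 0.000781 to 1.00, and in betamethasone with ketamine against control in 3 of 29, from 0.00165 to 1.00. Both lowest values came with the deposited value table. It passed in both with the deposited value table, with no array block (limma adjusted p = 0.0139 in betamethasone) and without the array of betamethasone with ketamine replicates 3 and 4 (limma adjusted p = 0.0303 in betamethasone). With only the groups compared, its limma adjusted p was 0.049 in betamethasone. In betamethasone against control, 7256 of 14136 genes passed with the deposited value table and 981 of 18700 with no array block. Without that ketamine array it was 422 of 18677, with only the groups compared 246 of 18700, and in the fit used here 46 of 18700. In betamethasone with ketamine against control, 5530, 779 and 3100 genes passed with that table, no array block and without that array, against 17 in the fit used here.

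Napb's partners did not pass in either direction. Napa, alpha-SNAP, averaged 12.00 ± 0.11 in betamethasone with ketamine, 11.92 ± 0.15 in betamethasone and 11.39 ± 0.50 in control (SD, n = 4 each), and was higher by 0.62 in betamethasone with ketamine (SE 0.37, limma adjusted p = 0.465). Its spot on the array of control replicates 3 and 4 lay in a damaged area. Nsf, the ATPase that takes SNARE complexes apart, averaged 10.71 ± 0.23 in betamethasone with ketamine, 10.37 ± 0.32 in betamethasone and 11.03 ± 0.73 in control (SD, n = 4 each), and its groups overlapped. It was lower, as Napb was, by 0.31 in betamethasone with ketamine (log2 change -0.31, SE 0.42, limma adjusted p = 0.741) and by 0.66 in betamethasone (log2 change -0.66, SE 0.42, limma adjusted p = 0.587), each against control.

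None of the SNAREs themselves passed. Snap25 had log2 changes of 0.02 (SE 0.20) in betamethasone with ketamine and -0.20 (SE 0.20) in betamethasone, each against control. For Stx1a, syntaxin-1A, they were -0.14 and -0.20 (SE 0.15 each), and for Vamp1, a vesicle SNARE, -0.24 and -0.15 (SE 0.13 each). At their second probes these changes were 0.24 and 0.00 for Snap25, and 0.01 and -0.04 for Vamp1. Vamp2, the main vesicle SNARE of the cortex, read 12.86 in control replicate 2 and 14.65, 14.65 and 14.71 in the other controls. Its change of 0.58 in betamethasone with ketamine against control (SE 0.48) was 0.18 without that sample. The complexins Cplx1 and Cplx2, which clamp and then promote fusion, had log2 changes of -0.18 to 0.17 in the 3 comparisons at the tested probes. The second Cplx1 probe had the opposite sign to the tested one in each comparison. Its changes were 0.45 in betamethasone against control, 0.17 in betamethasone with ketamine against betamethasone and 0.62 in betamethasone with ketamine against control (SE 0.37 each). Of the 9 genes of this class, 2 were higher and 7 lower in betamethasone than in control.

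Snap25, Vamp1 and Syt11 each had a probe spotted 10 times per array, which shows the error of a spot within a sample. The SD over these spots had a median of 0.19 for Snap25, 0.27 for Vamp1 and 0.16 for Syt11, with a highest value of 0.43. The other members with a single spot per probe carry an error of this kind in each sample. Snap25 averaged 15.42, 15.38, 15.32 and 15.34 in betamethasone with ketamine, 14.76, 15.30, 15.03 and 15.50 in betamethasone, and 15.40, 15.26, 15.35 and 15.37 in control. Betamethasone replicates 1 and 3 were the lowest, and the groups overlapped.

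**Figure D3:**
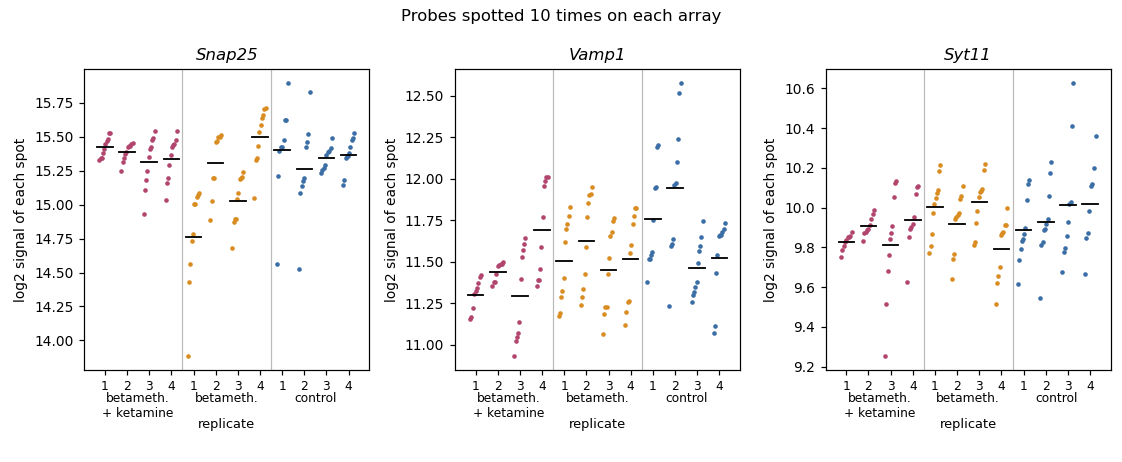
Log2 signal of each spot (points) and mean (black lines) for the probes of Snap25, Vamp1 and Syt11 that were spotted 10 times on each array, by group and replicate. The SD of the spots of a sample had a median of 0.19 for Snap25, 0.27 for Vamp1 and 0.16 for Syt11, and the groups overlap for each gene.

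In the active zone, Rims2 encodes RIM2, a scaffold that joins vesicle-bound Rab3 to calcium channels and priming factors, and its probes differed in direction. The probe nearer the 5′ end, which was the one tested, read 8.09, 8.13, 8.18 and 8.24 in betamethasone with ketamine, 8.19, 8.38, 8.17 and 8.22 in betamethasone, and 8.07, 7.98, 7.97 and 7.93 in control. The probe nearer the 3′ end read 8.19, 8.22, 7.77 and 7.96 in betamethasone with ketamine, 7.74, 8.02, 7.83 and 7.98 in betamethasone, and 8.11, 8.10, 8.23 and 8.40 in control. In betamethasone, all 4 samples lay above the controls at the first probe and below them at the second.

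The Rims2 change in betamethasone against control was 0.25 (SE 0.10, limma adjusted p = 0.36) at the first probe and -0.32 at the second. The value at the first probe depended on the scaling. It was 0.53 with scanner-processed signals, -0.02 with array medians, -0.29 with 75th percentile scaling and -0.35 with the deposited value table. Relative to the median of all genes in each setting these were 0.48, -0.10, -0.10 and 0.23, against 0.23 in the scaling used here. Rims1, encoding RIM1, read 9.13, 9.19, 8.80 and 8.73 in betamethasone with ketamine, 8.66, 8.68, 8.69 and 8.79 in betamethasone, and 8.88, 8.61, 8.88 and 9.01 in control. Replicates 1 and 2 of betamethasone with ketamine were the highest, and the change against betamethasone was 0.26 (SE 0.15, limma adjusted p = 0.906).

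Pclo, piccolo, a giant scaffold of the active zone, had the smallest p-value of the 43 in betamethasone with ketamine against betamethasone. It read 9.86, 9.98, 9.65 and 9.46 in betamethasone with ketamine, 9.15, 9.51, 9.34 and 9.40 in betamethasone, and 9.42, 9.45, 9.53 and 9.37 in control. Replicate 4 of betamethasone with ketamine overlapped with betamethasone, and the change was 0.39 (SE 0.17, limma adjusted p = 0.906). At its second probe the change was 0.25 in the same comparison. Bassoon, the related scaffold encoded by Bsn, had a change of -0.12 (SE 0.22), and 0.03 at its second probe.

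Unc13a, encoding Munc13-1, the priming factor of most cortical excitatory synapses, read 9.51, 9.53, 9.31 and 9.23 in betamethasone with ketamine, 9.21, 9.29, 9.29 and 9.14 in betamethasone, and 9.11, 9.06, 9.23 and 9.08 in control. The betamethasone with ketamine samples all lay above the controls, but replicate 4 and control replicate 3 both read 9.23 when rounded. The fitted change was 0.27 (SE 0.11, limma adjusted p = 0.322). Under the deposited value table that change was -0.30, or 0.19 above the median of all genes in that setting. Over 5 scalings it lay 0.0057 to 0.20 above that median, so its size depended on the scaling. Unc13b read 8.24, 8.24, 8.04 and 8.08 in betamethasone with ketamine, 7.73, 7.84, 7.84 and 8.21 in betamethasone, and 8.14, 8.04, 8.15 and 8.40 in control. Betamethasone replicate 4 overlapped with the controls, and the change was -0.28 in betamethasone (SE 0.15, limma adjusted p = 0.499).

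Of the Rab3 GTPases, which sit on vesicles and bind RIM, Rab3c read 7.85, 7.88, 9.13 and 9.45 in betamethasone with ketamine, 9.12, 9.17, 9.19 and 9.30 in betamethasone, and 9.63, 9.73, 9.57 and 9.58 in control. All 4 betamethasone samples and all 4 betamethasone with ketamine samples lay below the 4 controls. The lowest pair is the one in the dark area. The change in betamethasone against control was -0.43 (SE 0.32, limma adjusted p = 0.655). With the damaged areas masked it was -0.43 with SE 0.11 (limma adjusted p = 0.156), and without the array of betamethasone with ketamine replicates 1 and 2, SE 0.08 (limma adjusted p = 0.0389). The limma adjusted p of Rab3c ranged from 0.0107 to 1.00 over 29 alternatives in that comparison, and it passed in 4 of them. In these 4, 7256 of 14136 genes passed with the deposited value table and 246 of 18700 with only the groups compared. Without betamethasone with ketamine replicates 1 and 2 it was 493 of 18665, and without replicates 3 and 4 it was 422 of 18677. For betamethasone with ketamine against control the change was -1.05 (SE 0.32, limma adjusted p = 0.254) and -0.34 with the areas masked (SE 0.13, limma adjusted p = 0.325).

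Rab3a and Rab3b lay the other way, at 0.75 (SE 0.46) and 0.35 (SE 0.30) in betamethasone against control, with overlapping groups. Their controls were spread widely: Rab3a averaged 13.63 ± 0.09 in betamethasone and 12.88 ± 0.68 in control, and Rab3b 11.95 ± 0.08 in betamethasone and 11.61 ± 0.63 in control (SD, n = 4 each). Rph3a, rabphilin, a Rab3 effector, had a change of -0.09 (SE 0.18).

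Among the 6 genes of endocytosis, 2 were higher and 4 lower in betamethasone than in control. Amph, amphiphysin, a membrane-curving protein that recruits dynamin, read 11.35, 11.27, 11.42 and 11.38 in betamethasone with ketamine, 11.22, 11.35, 11.31 and 11.43 in betamethasone, and 10.80, 10.24, 11.01 and 11.25 in control. Betamethasone with ketamine lay above all controls by a narrow margin, and betamethasone replicate 1 lay below control replicate 4. The changes were 0.53 (SE 0.24, limma adjusted p = 0.351) and 0.50 (SE 0.24, limma adjusted p = 0.443), each against control. With the deposited value table they were 0.00 and -0.04, or 0.49 and 0.54 above the median of all genes in that setting.

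Snap91, AP180, which assembles clathrin, read 11.06, 10.89, 10.41 and 10.15 in betamethasone with ketamine, 9.89, 10.31, 9.73 and 9.96 in betamethasone, and 10.70, 9.94 and 11.26 in control replicates 1, 2 and 4. The value of control replicate 3 was left out because its spot was marked as an outlier. The groups overlapped, and the change was -0.78 in betamethasone against control (SE 0.41, limma adjusted p = 0.495). Sh3gl2 (endophilin A1), Synj1 (synaptojanin), Dnm3 (a dynamin) and Bin1 (an amphiphysin relative) had log2 changes of -0.41 to 0.26 at the tested probes. None passed in the 3 comparisons. At their second probes, Bin1 and Dnm3 had changes of 0.38 and 0.35 in betamethasone with ketamine against control. Synj1 had 0.33 at its second probe in betamethasone with ketamine against betamethasone.

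**Figure D4:**
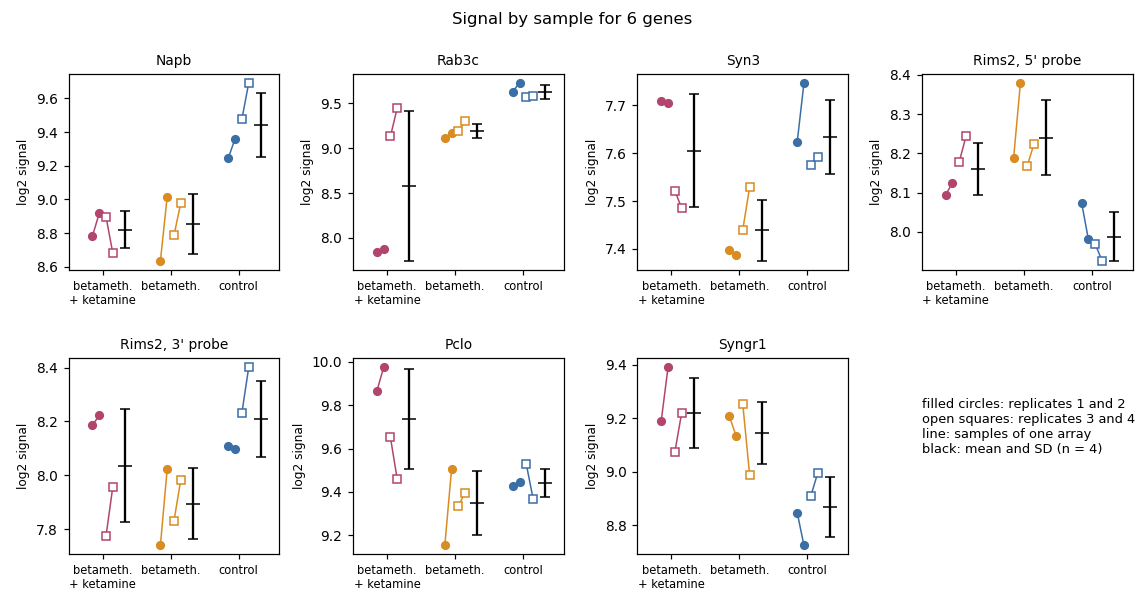
Log2 signal by sample for Napb, Rab3c, Syn3, both probes of Rims2, Pclo and Syngr1, in betamethasone with ketamine, betamethasone and control, with lines joining the 2 samples of an array and the mean with SD (n = 4) in black. Napb and Rab3c are lower in all 8 exposed samples than in the controls, and the probes of Rims2 part from the controls in opposite directions in betamethasone.

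**Figure D5:**
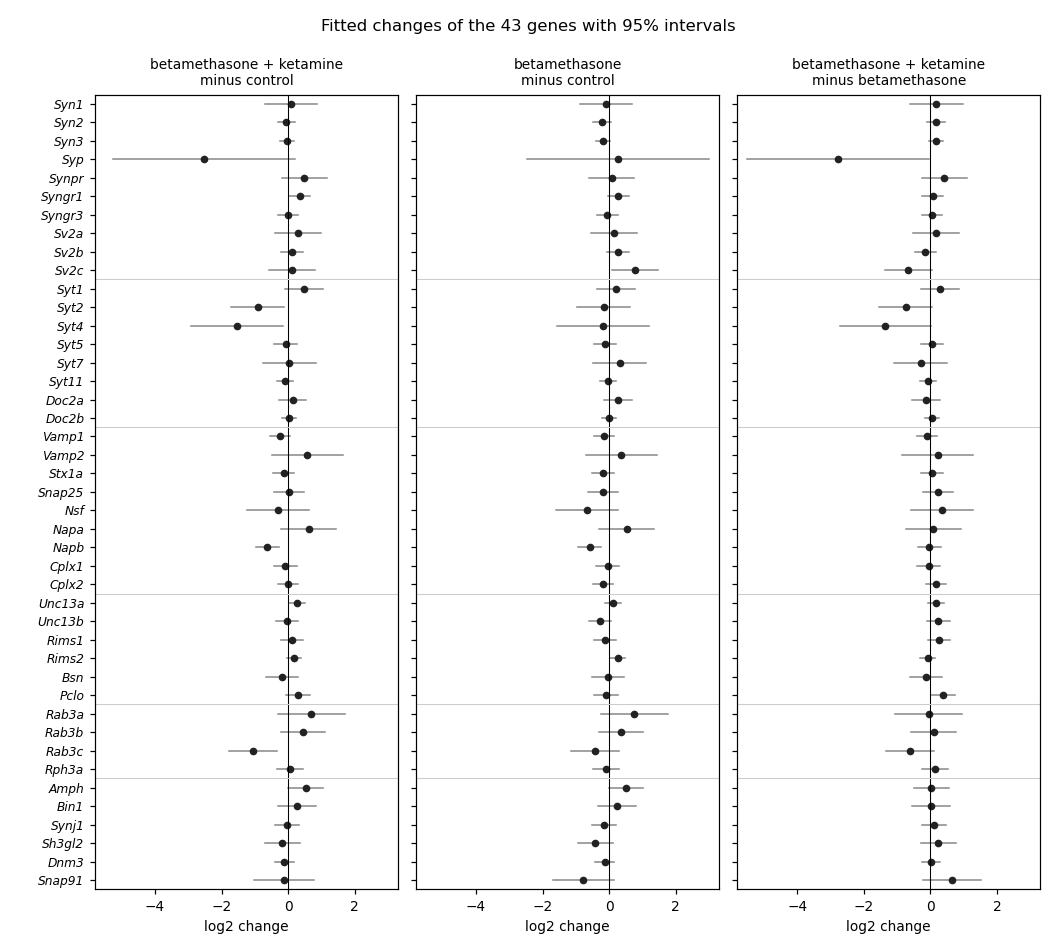
Fitted log2 change (points) and 95% interval (lines) of each of the 43 genes in the 3 comparisons, ordered by role. Most intervals cross 0; the widest belong to Syp, Syt4 and Vamp2.

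In betamethasone against control, 4 of the 43 genes had groups that did not overlap, against 18% of all genes tested. Rims2 was the 1 higher (10.6% of all genes), and Napb, Rab3c and Syn3 were the 3 lower (7.37% of all genes). In betamethasone with ketamine against control there were 7, or 16.3% of the members, against 15.8% of all genes. Amph, Napa, Rims2, Syngr1 and Unc13a were the 5 higher (12.1% of all genes), and Napb and Rab3c the 2 lower (3.72% of all genes). Of these, Napa had a control spot and Rab3c a betamethasone with ketamine spot in a damaged area. The second Rims2 probe had a change of -0.17 in that comparison. In betamethasone with ketamine against betamethasone there were 0, against 4.07% of all genes (2.76% higher and 1.32% lower). The members' shares were below or close to those of all genes.

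Changes over 0.5 on the log2 scale numbered 7 in betamethasone against control (6.2% of all genes), 6 in betamethasone with ketamine against betamethasone (4.49%) and 9 in betamethasone with ketamine against control (8.73%). None of these passed the test. Of the 6, Syp, Syt4, Syt2 and Rab3c lay in the dark area, Sv2c was high on a single betamethasone array, and the groups of Snap91 overlapped. The 9 also included Syp, Syt4, Syt2 and Rab3c, and Vamp2, whose change was smaller without control replicate 2, as given above. The others of the 9 were Amph, Napa, Napb and Rab3a. The median SD of a gene over the 4 samples of a group was 0.16 for the 43 genes in betamethasone with ketamine, 0.11 in betamethasone and 0.17 in control, against 0.14, 0.10 and 0.15 over all genes.

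The spread of the controls followed particular samples. Control replicate 2 was the lowest of the 4 controls for 24 of the 42 members measured in all of them, against 36.0% of all genes, and control replicate 4 was the highest for 26 of 42, against 33.6%. In betamethasone, replicate 1 was the lowest for 22 of 43, against 28.0%. The samples of one array both lay above those of the other for 32 of 43 members in betamethasone with ketamine, 13 of 43 in betamethasone and 24 of 42 in control, against 75.9%, 26.9% and 55.1% of all genes.

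For the 11 members with 2 probes (Bin1, Bsn, Cplx1, Dnm3, Pclo, Rims2, Snap25, Synj1, Synpr, Syt4 and Vamp1), the changes at both probes had the same sign for 5 genes in betamethasone against control, 6 in betamethasone with ketamine against betamethasone and 5 in betamethasone with ketamine against control. Among 2349 genes with 2 kept probes the shares were 55.9%, 57.2% and 57.1%. The median difference between the probes' changes was 0.20, 0.21 and 0.27 in the 3 comparisons, against 0.18, 0.14 and 0.20 for those 2349 genes. Syt4, whose tested spot lay in the dark area, had the largest differences in the ketamine comparisons. They were 1.48 against betamethasone and 1.35 against control. None of the 54 probes passed when every kept probe was tested, where 0.204%, 0% and 0.079% of 21523 probes did.

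Other presynaptic genes, from lists of SNARE regulators, synaptotagmins, active zone, vesicle and endocytosis genes, were set beside the 43. Of 126 listed, 112 were tested, and none passed in any comparison. In betamethasone against control 67 were higher and 45 lower (median 0.06), against 56% higher and a median of 0.03 over all genes. In betamethasone with ketamine against betamethasone they were 76 and 36 (median 0.08), against 62.9% higher and a median of 0.05. In betamethasone with ketamine against control they were 83 and 29 (median 0.14), against 63.8% higher and a median of 0.07. These counts were read under the scaling used here only, and those of the 43 genes depended on the scaling. At an unadjusted p under 0.05 there were 13, 2 and 17, or 11.6%, 1.79% and 15.2% of the 112, against 11.7%, 3.24% and 14.1% of all genes.

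Stx4, a syntaxin of general membrane fusion, had the smallest p-value of them in both comparisons with control. It read 10.82, 10.80, 10.62 and 10.61 in betamethasone with ketamine, 10.73, 10.66, 10.78 and 10.67 in betamethasone, and 10.36, 10.12, 10.35 and 10.17 in control. All 8 exposed samples lay above the controls, by 0.47 (SE 0.10, limma adjusted p = 0.138) and 0.46 (SE 0.10, limma adjusted p = 0.107). Groups higher than control without overlap were found for 12.1% of all genes in betamethasone with ketamine and 10.6% in betamethasone.

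Atp6v1e1, a subunit of the proton pump that powers vesicle filling, read 11.20, 11.21, 11.19 and 11.17 in betamethasone with ketamine, 11.03, 11.26, 11.17 and 11.24 in betamethasone, and 10.78, 10.47, 10.68 and 10.50 in control. It too was higher in all 8 exposed samples, by 0.59 (SE 0.14, limma adjusted p = 0.171) and 0.57 (SE 0.14, limma adjusted p = 0.155). The shares of all genes given for Stx4 apply here too. Ppfia1, a liprin scaffold, was higher by 0.59 (SE 0.15, limma adjusted p = 0.182) in betamethasone with ketamine than in control, at 9.14 ± 0.22 against 8.54 ± 0.12 (SD, n = 4 each).

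Sgip1, an endocytic adaptor, averaged 12.53 ± 0.19 in betamethasone with ketamine, 11.90 ± 0.48 in betamethasone and 12.59 ± 0.03 in control (SD, n = 4 each). It was lower in every betamethasone sample than in any control, by 0.70 on average (log2 change -0.70, SE 0.22, limma adjusted p = 0.25). In that comparison 7.37% of all genes were lower without overlap. Itsn2, an intersectin, was higher by 0.33 (SE 0.11, limma adjusted p = 0.906) in betamethasone with ketamine than in betamethasone. Every sample of the one group lay above every sample of the other, as for 2.76% of all genes. Ap2b1, a clathrin adaptor subunit, read 14.65, 14.56, 14.25 and 14.22 in betamethasone with ketamine, 13.28, 13.47, 14.44 and 14.25 in betamethasone, and 14.54, 14.32, 14.33 and 14.31 in control. Only the array of betamethasone replicates 1 and 2 was low, and the fitted change of 0.56 (SE 0.25, limma adjusted p = 0.906) against betamethasone holds that array.

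Markers of other cell types give the setting of these values. Of the 9 oligodendrocyte markers, all 9 were lower in betamethasone than in control (median -0.50), against 44% of all genes. In betamethasone with ketamine 8 of 9 were lower than in control (median -0.47), against 36.2% of all genes. None passed the test, and these counts were read under the scaling used here only. The markers' mean log2 signal ranged from 9.67 to 10.35 in betamethasone with ketamine, 9.41 to 10.16 in betamethasone and 10.09 to 10.72 in control. Both exposed groups thus overlapped with control. The 9 tested pan-neuronal markers had means of 13.39 to 13.57, 13.28 to 13.53 and 13.02 to 13.48 in the same groups, which overlap. The part of cell composition in the values of Napb, Rab3c or any other member was not tested.

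Promoters from RefSeq on GRCr8 (250 bases before to 50 after the start) were found for 33 of the 43 genes, and these sequences are shown because a shared motif is a property the arrays did not measure. The cAMP response element TGACGTCA, searched on both strands, which for this palindrome read the same, was present in 4 of the 33 windows (12.1%), against 1.91% of all 27457 windows. The exact consensus of the glucocorticoid response element, an inverted repeat around a spacer, was in 0 of the 33 and in 2 of all windows (0.00728%). So rare a match cannot tell whether these genes carry such elements. The stretches of 30 bases around the element in these 4 windows follow, with the element in capitals.
Napa (GRCr8 chr1:85915365-85915394, plus strand): gcagacccgggTGACGTCAacgtagcgggc
Vamp1 (GRCr8 chr4:159698812-159698841, plus strand): cctggagatttTGACGTCAtccacgaggcg
Sh3gl2 (GRCr8 chr5:104699193-104699222, plus strand): atcacccgcccTGACGTCAgggtgtctctc
Syn1 (GRCr8 chrX:3725544-3725573, plus strand): caaaggcgggcTGACGTCActctccagccc
None of these 4 genes passed in any comparison. A match of letters is a description and not evidence of binding.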

How the data were processed

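The values analysed are intensity values of spots in scanner units, read by Agilent Feature Extraction 11.5.1.1 (slide of the controls) and 11.0.1.1 (the other slide), per the file headers; the submitters' processing notes name version 10.7.3.1. Probe positions are on rn4. The deposited value table holds a ratio per spot, the median signal minus local background over the column median, found by setting it against the scanner values. In it, the control replicates are exchanged between the 2 control arrays relative to the scanner files, and it served only as an alternative.

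Log2 values were computed from the deposited intensity values with limma 3.58.1 in R 4.3.3: normexp background correction (offset 50), loess within and Aquantile between arrays, spots marked as outliers left out, and spots of a probe averaged. A probe was kept if any group had 3 or more samples in which it was well above background. Each gene was represented by its brightest kept probe. The model held group and dye, with the array as a random block (correlation 0.563), and p-values were adjusted over 18700 genes at 0.05. A damaged area was a neighbourhood in which at least 25% of spots departed from the median of the arrays by over 1 on the log2 scale. The fit was tested on simulated data. The number of arrays, 2 per group, limits the precision.

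The members and gene lists were chosen with earlier results of these data known. Values in every sample are given for the 8 members with the smallest unadjusted p in each comparison, and, of the other presynaptic genes, the 3 with the smallest in each comparison are named. No litter or batch is given. Alternatives covered scaling, the dim-probe filter, the choice of probe, the blocks, masking, and leaving out samples or arrays. RefSeq sequences came from the GRCr8 tables.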

Additional observations from a re-analysis of the deposited data

Results flagged for a closer look

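Of 128 sets of 4 samples (a member in a group), 2 held a sample far from the others, where about 1 in 20 would by chance. Vamp2 was low in control replicate 2, at 12.86 against 14.65 in the nearest control, with a gap of 0.968 of the group's range. Synj1 was low in betamethasone replicate 1, at 13.37 against 13.46 in the nearest sample, with a gap of 0.832 of a narrow range.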

How the results depend on the processing

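No count of called members differed from 0 under scanner-processed signals, array medians, 75th percentile scaling, no filter on dim probes, the mean of a gene's probes, all kept probes, the array as the replicate or masked areas. Leaving out 1 sample at a time gave 0 members called in each comparison. Leaving out 1 array at a time gave 0 to 2 in betamethasone against control, 0 to 6 in betamethasone with ketamine against betamethasone and 0 to 8 in betamethasone with ketamine against control. The highest counts (2, 6 and 8) came without betamethasone with ketamine replicates 3 and 4, where 422, 2297 and 3100 of 18677 genes passed. There the array that holds the dark area is the lone ketamine array, assumed to vary like the other groups. Without betamethasone with ketamine replicates 1 and 2, Rab3c alone of the members passed in betamethasone against control, where 493 of 18665 genes did. Without control replicates 3 and 4, Rab3b alone of the members passed in both comparisons with control, where 317 and 357 of 18495 genes did. Without betamethasone replicates 1 and 2, Sv2c alone of the members passed in both comparisons with betamethasone, where 15 and 9 of 18542 genes did. Without the array block, 1 member (Napb) passed in each comparison with control, where 981 (betamethasone) and 779 (betamethasone with ketamine) of 18700 genes did. With only the groups compared, 2 (Napb and Rab3c) passed in betamethasone against control, where 246 of 18700 genes did.

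With the deposited value table, 20 of 37 members passed in betamethasone against control and 14 of 37 in betamethasone with ketamine against control, where 7256 and 5530 of 14136 genes did. The members' medians were -0.55 and -0.49, against -0.58 and -0.49 over all genes. Unc13a there stood at -0.53 in betamethasone against control, past the threshold and opposite in sign to its 0.11, but 0.053 above the median of all genes in that table, the same direction as before. With array medians, the members' medians were 0.25, -0.35 and -0.079 in betamethasone against control, betamethasone with ketamine against betamethasone, and betamethasone with ketamine against control. Under 75th percentile scaling they were -0.02, 0.07 and 0.07. The medians of all genes in these comparisons lay at 0.076, -0.10 and 0.017 with array medians and at -0.19, 0.32 and 0.17 under 75th percentile scaling. Relative to all genes, the members' medians were 0.17, -0.25 and -0.10 in both settings, against -0.08, 0.01 and -0.05 in the scaling used here. The cause was not tested.

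Replicate numbers did not pair the samples (correlations of -0.06 to 0.10 between samples of the same number). With the replicate block, 0 members passed in each comparison and the medians stayed at -0.06, 0.06 and 0.02. Among values of single genes under the alternatives, 3390 kept their side of the threshold and moved by less than 1 SE, 58 passed that had not, and 271 moved by over 1 SE without passing. Comparisons with control are also comparisons of slides, and 2 arrays per group set the width of the intervals.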

Other observations

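Marker lists of other cell types in the same samples gave no gene past the adjusted threshold (limma). Of the 9 microglial markers, 8 were higher in betamethasone with ketamine than in control, with a median log2 change of 0.27. Over all genes, 63.8% were higher in that comparison and the median was 0.07. The medians in betamethasone with ketamine against control were 0.20 for astrocytes, 0.29 for endothelium, 0.28 for pan-neuronal markers and 0.02 for excitatory neurons. Of the 9 pan-neuronal markers, 5 were higher there. In betamethasone against control the medians were 0.10 for astrocytes, 0.19 for endothelium, 0.18 for pan-neuronal markers and 0.00 for excitatory neurons. The median over all genes was 0.03 there. For inhibitory neurons the medians were 0.07 in betamethasone with ketamine and 0.05 in betamethasone, each against control. Their part in the values of the vesicle genes was not tested.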
